A study of Mus musculus with 24 samples.

Results

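The hypoxia-inducible factor (HIF) system of C2C12 myotubes was described by the transcripts of 10 genes. They are the HIF alpha subunits Hif1a, Epas1 and Hif3a, the beta subunits Arnt and Arnt2, the prolyl hydroxylases Egln1, Egln2 and Egln3, the asparaginyl hydroxylase Hif1an, and Vhl. They are a set of named genes, chosen with earlier results of these data known, and are 10 of 55487 genes listed. Of these 10, 9 are among the 14541 genes tested, and Hif3a did not pass the filter on low values.

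C2C12 is a myoblast line of mouse skeletal muscle that fuses into myotubes. Wild-type cells were grown and differentiated under 5 % O2, and at day 5 they were kept for 2 h under 5 % or 1 % O2. Cultures were left without stimulation (5 % CTRL and 1 % CTRL) or were then stimulated electrically (5 % STIM and 1 % STIM) as 6 bouts of 30 s, 4 min apart, with pulses of 2 ms, 14 V and 50 Hz. Each of the 4 groups had 6 libraries, and the methods describe them as biological replicates. All cultures come from 1 cell line, with no nerve or blood supply, so the spread between libraries is that of cultures and not of animals. The medium of stimulated wells was replaced before and after stimulation, and whether unstimulated wells had the same changes is not given in the sources used here, so stimulation and a change of medium cannot be told apart.

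An active HIF is a pair of an alpha and a beta subunit that binds a short DNA motif near its target genes. With O2 present, the prolyl hydroxylases modify the alpha subunit, and the product of Vhl then recognises it as the substrate-binding subunit of a ubiquitin ligase that sends it to the proteasome. The asparaginyl hydroxylase, also known as FIH, uses O2 to block the contact of the alpha subunit with its coactivators. Egln1 (PHD2) and Egln3 (PHD3) are themselves known HIF targets. The regulation of the alpha subunit by O2 acts on the protein, which transcript counts do not show.

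The promoters below are shown because the 3 genes that rose most under 1 % O2, Egln3, Vhl and Egln1, can be set beside Egln2, a hydroxylase gene of the same family that was not called. RefSeq windows of 250 bases before the annotated start, on build GRCm38.p6, were at hand for 9 of the 10 genes (10 windows, since Egln2 has 2 starts), and not for Epas1. The core of the HIF motif was searched as the letters ACGTG or GCGTG on both strands, with overlapping matches counted once. Sequences run 5′ to 3′ on the strand of the gene, and capitals mark the matches.
Egln3, minus strand, chr12:54203875-54204124: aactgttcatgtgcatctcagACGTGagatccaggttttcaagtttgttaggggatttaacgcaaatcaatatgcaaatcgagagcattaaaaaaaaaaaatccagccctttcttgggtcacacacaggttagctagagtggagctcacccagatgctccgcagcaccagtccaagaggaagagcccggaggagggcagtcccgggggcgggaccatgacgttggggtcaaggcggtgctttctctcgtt
Egln1, minus strand, chr8:124949255-124949504: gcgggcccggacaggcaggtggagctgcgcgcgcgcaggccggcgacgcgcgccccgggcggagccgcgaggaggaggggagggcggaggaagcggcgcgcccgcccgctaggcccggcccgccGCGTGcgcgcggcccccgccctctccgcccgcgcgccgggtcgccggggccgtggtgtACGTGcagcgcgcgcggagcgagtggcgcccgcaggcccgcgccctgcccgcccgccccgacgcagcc
Vhl, plus strand, chr6:113623744-113623993: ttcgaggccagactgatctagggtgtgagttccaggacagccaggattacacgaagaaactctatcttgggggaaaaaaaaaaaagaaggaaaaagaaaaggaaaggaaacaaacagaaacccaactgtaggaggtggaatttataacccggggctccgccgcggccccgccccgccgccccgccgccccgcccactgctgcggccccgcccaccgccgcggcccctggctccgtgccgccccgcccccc
Egln2, minus strand, chr7:27166803-27167052: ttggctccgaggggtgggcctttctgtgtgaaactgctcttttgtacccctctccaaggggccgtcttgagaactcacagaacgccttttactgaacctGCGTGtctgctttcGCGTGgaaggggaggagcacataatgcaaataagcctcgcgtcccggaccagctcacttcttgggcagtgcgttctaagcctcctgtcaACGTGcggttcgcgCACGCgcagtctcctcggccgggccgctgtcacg

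In these windows Egln3 held 1 match, Egln1 held 2, Vhl held 0 and the Egln2 window held 4. The second Egln2 window, chr7:27165729-27165978, held 1. Hif1a and Hif3a held 2 each, Arnt held 1, and Arnt2 and Hif1an held 0. At least 1 match was thus present in 7 of the 10 windows of these genes, against 38.6 % of all 32851 RefSeq windows of the same length. At least 2 were present in 13.5 % of all windows and at least 4 in 1.49 %. The window with the most matches belonged to Egln2, and a link between match counts and the changes under 1 % O2 was not tested. A match describes letters and is not a binding site, and no match says only that these letters are not in this window. The Egln1 window was also rich in the dinucleotide CG, with 51 of them, and 0.067 % of all windows held as many. Both motifs hold a CG. Except for the second Egln2 window, with 4, the windows of these genes held 9 to 51, against a median of 6 over all windows. The share of windows with a match was not compared at equal CG content, so it is given as a description.

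Libraries held 26541858 to 28173745 reads, recovered as whole reads from the deposited normalized counts. The 10 myotube markers (such as Myog, Ckm and Acta1) were all tested, with summed normalized counts of 553177 to 607388 (median 583835) in 5 % CTRL and 506203 to 555791 (542913) in 1 % CTRL. The stimulated cultures had 496407 to 572108 (543436) under 5 % O2 and 499135 to 549106 (512465) under 1 % O2. These medians were lower under 1 % O2 and with stimulation, though the compared groups overlapped. Of the 4 endothelial and 4 adipocyte markers, all stayed below 10 normalized counts, with Tie1 and Plin1 at 0 in each library. Of 4 immune markers Ptprc and Adgre1 stayed below 10, while the other 2 passed the filter on low values. The 4 immune markers had median summed counts of 63.4 in 5 % CTRL and 49.2 in 1 % CTRL. In 5 % STIM and 1 % STIM the median sums were 54.97 and 56.8. The 6 cycling myoblast markers summed to 3533 to 4022 in 5 % CTRL, 4387 to 6647 in 1 % CTRL, 3932 to 4703 in 5 % STIM and 4510 to 5607 in 1 % STIM. Their medians were 3755, 4750.1, 4288 and 4899, so they were higher under 1 % O2, without overlap in the unstimulated cultures, and higher with stimulation, with overlap. The part of both marker lists in the results below was not tested. In bulk RNA, fewer cells of a type and less RNA per cell cannot be told apart. Replicate 1 of 1 % CTRL stood apart in the slope of its log2 values, relative to the mean of all libraries, on log2 exon length (0.097, against −0.047 to −0.016 in the other libraries of its group), and results that rest on it are given without it too. The slope of replicate 3 of 1 % STIM was also the highest of its group (0.065, against −0.019 to 0.026), and no call of a member changed without that library.

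Compared per kb of exon, the transcripts of the system spanned a wide range. In 5 % CTRL the order was Egln3 at 1776 ± 57.7 normalized counts per kb (SD, n = 6), Hif1a at 694 ± 33.3, Egln1 at 693 ± 26.7, Hif1an at 644 ± 12.9, Arnt at 304 ± 8.83, Egln2 at 267 ± 28.3, Vhl at 202 ± 11.05, Arnt2 at 24.7 ± 2.42, Epas1 at 6.54 ± 0.713 and Hif3a at 0.946 ± 0.311. Hif1a and Egln1, Egln1 and Hif1an, and Arnt and Egln2 were neighbours whose libraries overlapped, so their order is within the spread. In 1 % CTRL, Egln3 stood first again at 5801 ± 183 per kb, Egln1 moved to the second place at 1254 ± 34.1, and Vhl, at 395, moved above Arnt and Egln2. There the only neighbours that overlapped were Arnt and Egln2. In 5 % STIM the order of 5 % CTRL was kept except for Hif1an (633 ± 9.84 per kb) and Egln1 (613 ± 30.03), which changed places and overlapped. In 1 % STIM the order of the first 4 genes was the same as in 1 % CTRL, but Egln1 (918 ± 42.0 per kb) overlapped Hif1a (841 ± 32.7), and Vhl (319 ± 31.1) overlapped Arnt (312 ± 10.6).

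**Figure D1:**
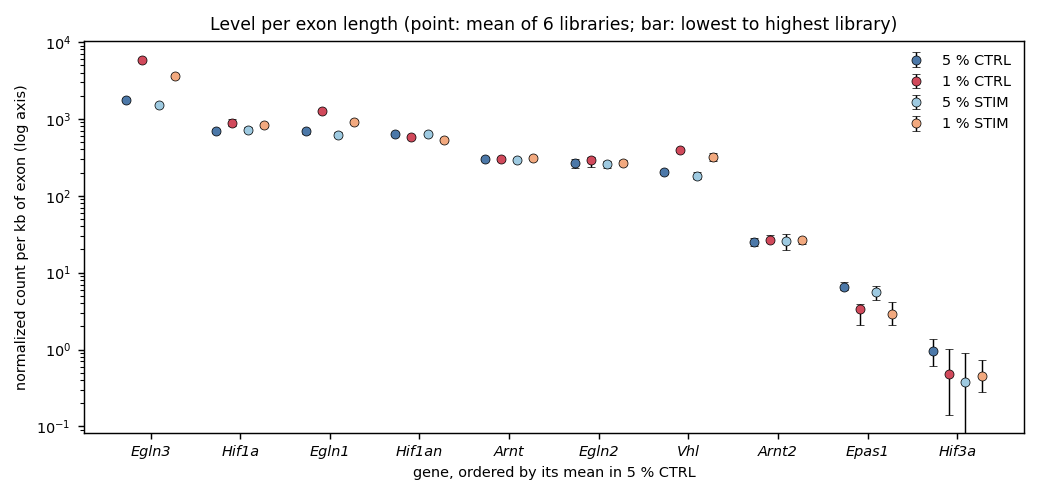
Normalized count per kb of exon on a log axis for the 10 genes, ordered by their mean in 5 % CTRL, with 1 colour per group. Points are means of 6 libraries and bars run from the lowest to the highest library. Egln3 lies above the other genes in all groups, Epas1 and Hif3a lie lowest, and the bar of Hif3a in 5 % STIM reaches 0, which the log axis does not show.

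Hif1a, which encodes HIF-1α, was the main alpha subunit transcript, with 98.9 ± 0.103 % of the per-kb level of the 3 alpha genes in 5 % CTRL and 99.6 ± 0.0903 % in 1 % CTRL (SD, n = 6). It lies on chromosome 12 from 73901375 to 73947530 of GRCm38 and has 5896 bases of exon. Its lowest, median and highest normalized counts were 3893, 4023 and 4372 in 5 % CTRL and 4816, 5069 and 5792 in 1 % CTRL. The 2 groups did not overlap, and Hif1a rose by 0.33 on the log2 scale (SE, the standard error, 0.04, and limma adjusted p = 7.14e-09, adjusted over all genes tested). The highest library was replicate 1 of 1 % CTRL, and without it the log2 fold change was 0.29 (limma adjusted p = 4.15e-09). In the stimulated myotubes the values were 4014, 4322 and 4613 under 5 % O2 and 4624, 5033 and 5173 under 1 % O2, again without overlap. The log2 fold change was 0.21 (SE 0.04, limma adjusted p = 2.23e-05). The median absolute log2 difference of all genes between the O2 levels was 0.23 without and 0.21 with stimulation. Between stimulated and unstimulated cultures the log2 differences were 0.07 under 5 % O2 and −0.05 under 1 % O2, with overlapping groups and adjusted p of 0.244 and 0.407 from limma. With the slope of each library on exon length taken into the fit, an alternative chosen after seeing the data, both passed the threshold, at 0.10 (adjusted p = 0.00965) and −0.08 (adjusted p = 0.0461), and so did the interaction, at −0.18 (adjusted p = 0.0033). Genes that overlap Hif1a, the antisense Gm15283 and Gm49321, share 4.46 % of its exon words of 75 bases, and their mean normalized counts were 1.12 and 0.739.

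Epas1, which encodes HIF-2α and is best known from endothelial cells, was a rare transcript that fell under 1 % O2. It lies on chromosome 17 from 86753700 to 86833410. Its lowest, median and highest values were 33.3, 34.6 and 42.7 normalized counts in 5 % CTRL and 11.6, 20.2 and 21.9 in 1 % CTRL. The groups did not overlap. Epas1 fell by 0.96 on the log2 scale (SE 0.18, limma adjusted p = 2.09e-05), a scale that understates the change of genes this low. Stimulated cultures had 24.5, 33.2 and 37.5 under 5 % O2 and 11.8, 14.9 and 23.1 under 1 % O2, also without overlap, a log2 fold change of −0.95 (SE 0.18, limma adjusted p = 2.64e-05). With a pseudocount of 10 the log2 fold changes were −0.71 and −0.68. The values rest on 12 to 42 reads per library, so the interval of the difference between both responses was wide, from −0.50 to 0.52 on the log2 scale. As given above, the endothelial markers stayed below 10.

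Hif3a, the third alpha subunit gene, was close to the limit of detection. On chromosome 7 from 17031507 to 17062427, it had 4.07 to 9.07 normalized counts in 5 % CTRL, 0.952 to 6.89 in 1 % CTRL, 0 to 6.13 in 5 % STIM and 1.91 to 4.87 in 1 % STIM. All groups overlapped. These values rest on 0 to 9 reads, where a count of 0 allows up to 3 reads for counting error alone, and the filter kept the gene out of the fit. In sum, 5 % CTRL held 37 of its reads, 1 % CTRL held 20, 5 % STIM held 15 and 1 % STIM held 19. In the fit without the filter, the log2 difference of 5 % STIM and 5 % CTRL was −1.29 (SE 0.41, limma adjusted p = 0.0378). An exact permutation test of the gene alone, an alternative chosen after seeing the data, gave p = 0.013 and 0.0519 after adjustment over the 4 comparisons, so the call depended on the test. In 1 % CTRL against 5 % CTRL the difference was −0.91 and passed neither (limma adjusted p = 0.0955, adjusted p = 0.0563 in the exact permutation test), and in the comparisons of 1 % STIM with 5 % STIM and with 1 % CTRL it was 0.44 and 0.06, which also missed the threshold in both tests.

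The beta subunit transcripts moved little. Arnt, whose product is the common partner of the alpha subunits, lies on chromosome 3 from 95434388 to 95497240. Its lowest, median and highest counts were 2320, 2425 and 2532 in 5 % CTRL and 2301, 2394 and 2558 in 1 % CTRL. The groups overlapped, and the log2 difference of −0.01 (95 % interval from −0.07 to 0.05, limma adjusted p = 0.803) did not pass the threshold. It turned to 0.07 (limma adjusted p = 0.0347) when libraries were rescaled to equal totals. That rescaling moved the median log2 difference of all genes from 0.00150 to 0.082. Under stimulation Arnt had 2289, 2318 and 2444 under 5 % O2 and 2390, 2499 and 2610 under 1 % O2, in overlapping groups. The log2 fold change of 0.09 passed (SE 0.03, limma adjusted p = 0.0083). It was 0.17 (limma adjusted p = 1.07e-05) with equal totals, where the median of all genes was 0.069. The difference between these responses was 0.10 (limma adjusted p = 0.121), and 0.12 (adjusted p = 0.0455) without replicate 1 of 1 % CTRL.

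Arnt2, a paralogue best known from neurons, lies on chromosome 7 from 84246278 to 84410176. It had 150.7 to 242 normalized counts over all 24 libraries and held 7.50 ± 0.6252 % of the per-kb level of the 2 beta genes in 5 % CTRL (SD, n = 6). Its groups overlapped in each of the 4 comparisons. The log2 differences lay between −0.03 and 0.12, with 95 % intervals that together ran from −0.21 to 0.30, and none passed the threshold. With equal library totals, the difference of 1 % CTRL and 5 % CTRL was 0.20 (limma adjusted p = 0.0403), where the median of all genes was 0.082. The antisense gene Gm30873 shares 1.81 % of the exon words of Arnt2 and had a mean of 27.3 normalized counts, and the counting is not stated to use strand, so reads of the 2 genes cannot be told apart there.

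Of the 3 prolyl hydroxylase genes, Egln3 and Egln1 rose under 1 % O2 and fell with stimulation, and Egln2 was not called. Egln3 (PHD3) had the largest change of the 9 tested genes. It lies on chromosome 12 from 54178981 to 54203860. Lowest, median and highest normalized counts were 4534, 4733 and 4927 in 5 % CTRL, and 14923, 15298 and 16217 in 1 % CTRL. The ratio of the group means was 3.27 and the log2 fold change 1.71 (SE 0.03, limma adjusted p = 7.28e-31), number 121 of all 14541 genes tested when ordered from the highest. In the stimulated groups the counts were 3976, 4087 and 4180 under 5 % O2 and 8951, 9717 and 10356 under 1 % O2. This is a ratio of means of 2.37 and a log2 fold change of 1.24 (SE 0.03, limma adjusted p = 7.69e-27), number 229 of the genes tested. No library of a 1 % group reached down to those of a 5 % group.

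Stimulation lowered Egln3 at both O2 levels, without overlap between the groups. The log2 fold change was −0.21 (SE 0.03, limma adjusted p = 1.43e-06) under 5 % O2 and −0.68 (SE 0.03, limma adjusted p = 1.56e-18) under 1 % O2. The interaction, taken as the stimulation effect under 1 % O2 minus the one under 5 % O2, was −0.46 (SE 0.04, limma adjusted p = 9.68e-10). Thus the rise of Egln3 under 1 % O2 was smaller in stimulated than in unstimulated myotubes, by more than the spread between libraries. The O2 level of the medium put in after stimulation is not given in the sources used here. A changed O2 exposure and stimulation itself therefore cannot be told apart in this difference.

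Egln1 (PHD2), regarded as the main O2 sensor of the family, followed the same order of groups. It lies on chromosome 8 from 124908587 to 124949324. Its normalized counts were 2310, 2510 and 2597 in 5 % CTRL and 4356, 4470 and 4689 in 1 % CTRL. After stimulation they were 2070.0, 2185 and 2398 under 5 % O2 and 3062, 3333 and 3471 under 1 % O2. The 1 % groups lay above the 5 % groups in all libraries, with log2 fold changes of 0.86 (SE 0.03, limma adjusted p = 7.37e-21) without and 0.58 (SE 0.03, limma adjusted p = 2.89e-16) with stimulation. With stimulation Egln1 fell by 0.18 on the log2 scale under 5 % O2, where the groups overlapped (limma adjusted p = 0.000187), and fell by 0.45 under 1 % O2, where they did not (limma adjusted p = 1.66e-12). The interaction was −0.27 (SE 0.05, limma adjusted p = 0.000176).

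Egln2 (PHD1), on chromosome 7 from 27158658 to 27166802, had overlapping groups throughout. Its counts ran from 634 to 848 in 5 % CTRL, 658 to 907 in 1 % CTRL, 650.1 to 799 in 5 % STIM and 704 to 823 in 1 % STIM. The log2 difference of 1 % CTRL and 5 % CTRL was 0.13 (95 % interval from −0.02 to 0.27, limma adjusted p = 0.132), and that of 1 % STIM and 5 % STIM was 0.04 (95 % interval from −0.10 to 0.19, limma adjusted p = 0.647). The lowest library of 1 % CTRL was replicate 1, and without it the first difference was 0.19 (limma adjusted p = 0.0103), and the difference of 1 % STIM and 1 % CTRL, −0.12 with all libraries, was −0.18 (limma adjusted p = 0.0341). With equal library totals the first was 0.21 (limma adjusted p = 0.0169), where the median of all genes was 0.082. Egln2 shares 11 bases of exon with Cyp2t4 on the other strand.

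**Figure D2:**
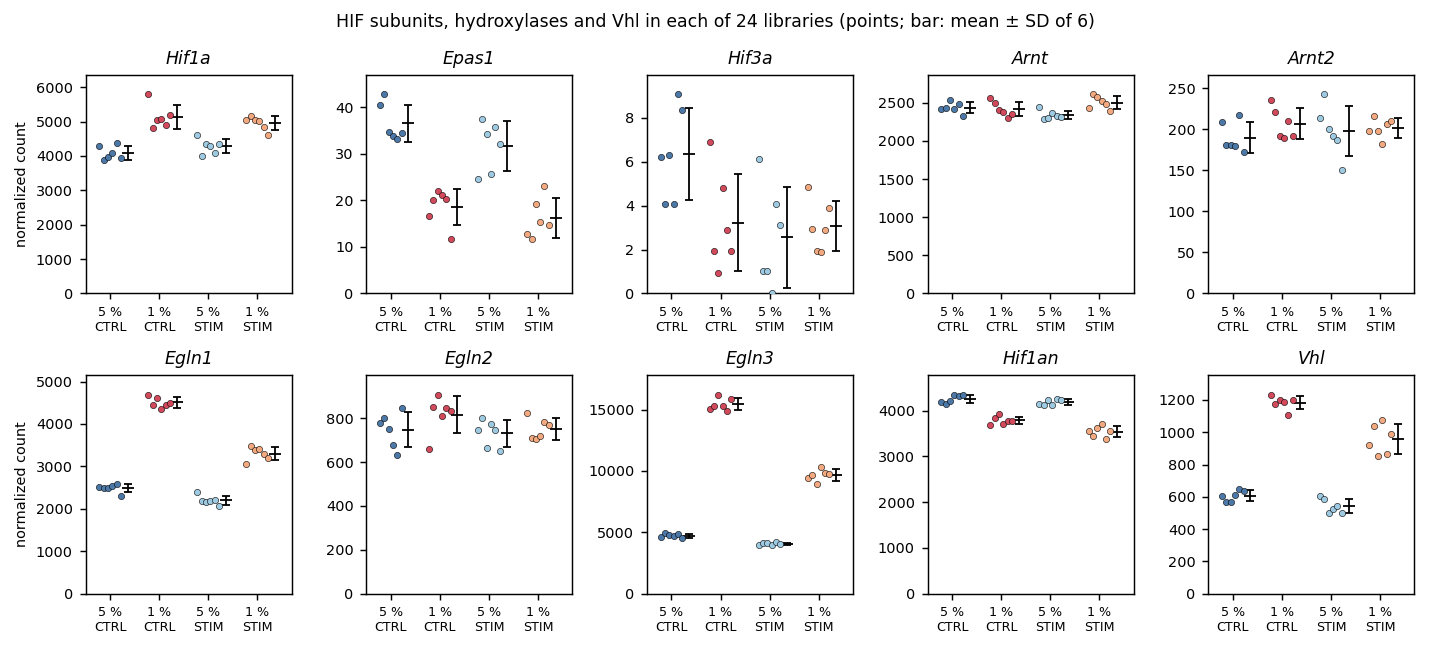
Normalized counts of the 10 genes in each of the 24 libraries, 1 panel per gene and 1 colour per group, on axes that start at 0. Points are libraries and bars give the mean ± SD of 6. Egln3 reaches 14923 to 16217 in 1 % CTRL and 8951 to 10356 in 1 % STIM, against 3976 to 4927 in both 5 % groups, while the groups of Arnt2 and Egln2 overlap.

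These changes altered the make-up of the prolyl hydroxylase transcripts. Egln3 held 64.9 ± 0.734 % of their summed per-kb level in 5 % CTRL and 79.0 ± 0.366 % in 1 % CTRL (SD, n = 6), and 63.7 ± 1.43 % in 5 % STIM and 75.3 ± 0.881 % in 1 % STIM. The share of Egln2 was 9.78 ± 1.13 % in 5 % CTRL and 3.97 ± 0.363 % in 1 % CTRL, and that of Egln1 was 25.3 ± 0.781 % and 17.1 ± 0.561 %. The share of Egln1 was lower under 1 % O2 although its level was higher, as the summed level of the family went from 2737 to 7347 per kb.

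Ratios of paired members were taken within each library, on normalized counts + 1, and 16 differences in them were tested by exact permutation (two-sided), with a smallest possible p of 0.00216. The log2 ratio of Egln3 to Egln1 was 0.93 ± 0.05 in 5 % CTRL and 1.78 ± 0.05 in 1 % CTRL, 0.89 ± 0.09 in 5 % STIM and 1.55 ± 0.09 in 1 % STIM (SD, n = 6). It was higher under 1 % O2 by 0.85 without and 0.66 with stimulation, and differed by −0.23 in 1 % STIM against 1 % CTRL, in 3 comparisons without overlap (exact permutation test, adjusted p = 0.00433 for each). The ratio of Egln1 to Egln2 likewise differed by 0.73, 0.54 and −0.33 in these comparisons (exact permutation test, adjusted p = 0.00433 for each). That of Hif1a to Epas1 was higher under 1 % O2 by 1.29 without and 1.16 with stimulation (exact permutation test, adjusted p = 0.00433 for both), and by 1.04 and 0.89 with a pseudocount of 10, as Epas1 is low. In the remaining 8 tests, among them the 4 of Arnt to Arnt2, no difference passed. Without 1 library, 2 of these did pass (exact permutation tests). They are Hif1a to Epas1 in 5 % STIM against 5 % CTRL without replicate 2 of 5 % STIM (0.35, adjusted p = 0.0462), and Arnt to Arnt2 in 1 % CTRL against 5 % CTRL without replicate 5 of 5 % CTRL (−0.17, adjusted p = 0.0385).

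**Figure D3:**
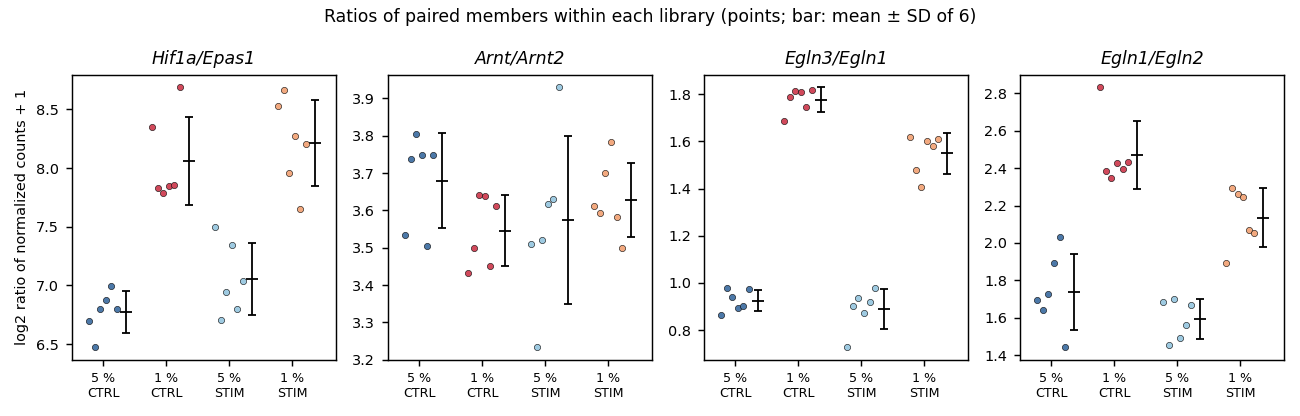
Log2 ratio of normalized counts + 1 of 4 gene pairs in each library, 1 panel per pair, with points for libraries and bars for the mean ± SD of 6. The axes do not start at 0. Each 1 % group lies above the 5 % group of the same stimulation state for Hif1a to Epas1, Egln3 to Egln1 and Egln1 to Egln2. For Egln1 to Egln2, 1 % STIM overlaps 5 % CTRL. The 4 groups of Arnt to Arnt2 overlap.

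Hif1an, the gene of the asparaginyl hydroxylase, fell under 1 % O2 by a small amount with a small spread. On chromosome 19 from 44562850 to 44576274, its counts were 4150, 4265 and 4345 in 5 % CTRL and 3691, 3766 and 3923 in 1 % CTRL. After stimulation they were 4112, 4181 and 4260 under 5 % O2 and 3389, 3550 and 3703 under 1 % O2. No library of a 1 % group reached the 5 % group it was compared with, and the log2 fold changes were −0.17 (SE 0.03, limma adjusted p = 7.55e-07) and −0.24 (SE 0.03, limma adjusted p = 8.91e-10). The median absolute log2 difference of all genes was 0.23 and 0.21 in these comparisons. With equal library totals the first log2 fold change of Hif1an was −0.09 (limma adjusted p = 0.00266), where the median of all genes was 0.082. Between 1 % STIM and 1 % CTRL, Hif1an fell by 0.10 on the log2 scale with overlapping groups (SE 0.03, limma adjusted p = 0.00583). Under 5 % O2 the effect of stimulation was −0.03 (95 % interval from −0.08 to 0.03, limma adjusted p = 0.535).

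Vhl, the gene of the subunit that recognises hydroxylated HIF alpha, rose under 1 % O2. It lies on chromosome 6 from 113623959 to 113631633. Its counts were 568, 610.0 and 648 in 5 % CTRL and 1106, 1192 and 1232 in 1 % CTRL. With stimulation it had 500.5, 534 and 607 under 5 % O2 and 851, 956 and 1078 under 1 % O2. The ratios of means were 1.95 and 1.76, without overlap, and the log2 fold changes 0.96 (SE 0.06, limma adjusted p = 1.02e-16) and 0.81 (SE 0.06, limma adjusted p = 1.28e-14). Stimulation under 1 % O2 gave −0.31 without overlap (SE 0.06, limma adjusted p = 4.69e-05). Under 5 % O2 it gave −0.16 with overlapping groups (limma adjusted p = 0.038), a call that was lost with edgeR (adjusted p = 0.0546), DESeq2 (0.0522), limma voom (0.0756), no filter (0.0735) and rescaled libraries (0.115). It was also lost without any 1 of replicates 1, 4, 5 and 6 of 5 % CTRL or 3, 4, 5 and 6 of 5 % STIM, with adjusted p of 0.0571 to 0.103. The interaction of −0.15 (95 % interval from −0.31 to 0.00418, limma adjusted p = 0.216) did not pass.

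Set against all genes tested, the counts were as follows. In 1 % CTRL against 5 % CTRL, 4 of the 9 tested members were called higher (Hif1a, Egln1, Egln3 and Vhl), where 29.4 % of all genes were, and 2 lower (Epas1 and Hif1an), where 30.5 % were. With libraries rescaled to equal totals 7 were called higher, as Arnt, Arnt2 and Egln2 passed too, and 2 lower. With that scaling, 5670 of the 14541 genes tested were called higher and 3378 lower. Groups did not overlap for 6 of 9, against 38.2 % of all genes. In 1 % STIM against 5 % STIM, 5 were higher (the same 4 and Arnt), against 29 % of all genes, and the same 2 lower, against 28.4 %. Groups did not overlap for 6, against 37.3 %. Shares near these backgrounds are no result about the members, and with 9 genes the counts are given as a description. The median log2 difference of the 9 was 0.13 and 0.09, against 0.00150 and −0.000827 over all genes.

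In 5 % STIM against 5 % CTRL, 0 of 9 were higher (9.44 % of all genes), and 3 were lower (Egln1, Egln3 and Vhl; 12 % of all genes). The groups of 1 member did not overlap, against 11.1 %. In 1 % STIM against 1 % CTRL, 0 were higher (11.5 %) and 4 lower (Egln1, Egln3, Hif1an and Vhl; 10.8 %), with 3 without overlap (11.2 %). Members higher with stimulation also numbered 0 at an unadjusted p under 0.05 in limma, and 0 in edgeR and DESeq2. The interaction was called above 0 for 0 members, where it was for 5.88 % of all genes, and below 0 for 2 (Egln1 and Egln3), where it was for 5.43 %. Above 0, edgeR and DESeq2 also called 0, and 1 member, Arnt, had an unadjusted p under 0.05 in limma. Median log2 differences of the 9 were −0.06, −0.12 and −0.09 in these comparisons, against −0.00764, −0.00314 and 0.0072 over all genes. The comparisons share groups, so they are not independent of each other. After rescaling of all libraries to equal totals, the higher genes made up 62.67 %, 63.21 %, 62.15 % and 62.36 % of all calls in the 4 comparisons in the order given, against 49.05 %, 50.44 %, 44.04 % and 51.4 % with the deposited scaling.

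**Figure D4:**
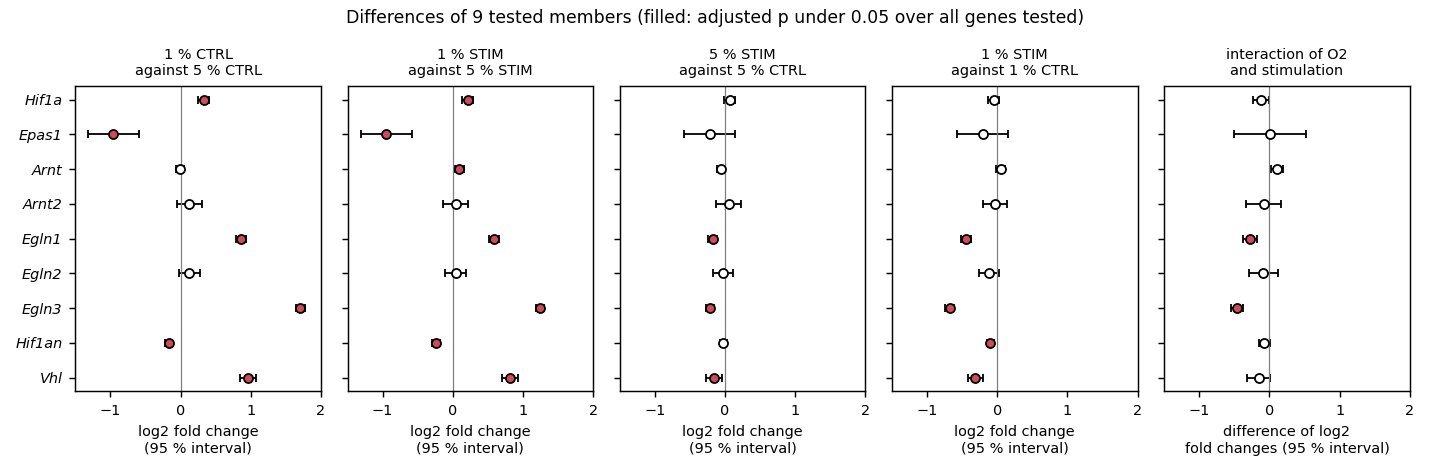
Log2 fold changes of the 9 tested genes in 4 comparisons, and in the last panel the interaction, with 95 % intervals from limma. Filled points have an adjusted p under 0.05 over all genes tested. Egln3, Vhl and Egln1 lie to the right in both comparisons of O2 and to the left in both comparisons of stimulation, while the interaction is filled for Egln1 and Egln3.

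Among 16 HIF targets from a list written with earlier results of these data known, 15 rose in 1 % CTRL against 5 % CTRL, with a median log2 fold change of 1.31. Of all genes tested, 29.4 % were called higher and 30.5 % lower there. Over all genes the median was 0.00150. The exception, named after its value was seen, was Car9, the gene of a carbonic anhydrase, which fell by 0.12. Adm, the gene of the vasodilator peptide adrenomedullin, went from 112 ± 14.1 to 1770 ± 47.0 normalized counts (SD, n = 6), a log2 fold change of 3.97 (SE 0.08, limma adjusted p = 1.26e-28). Ankrd37 went from 77.4 ± 15.8 to 599.8 ± 39.1, and Pfkfb3, the gene of an activator of glycolysis, from 966 ± 79.7 to 4765 ± 141. In 1 % STIM against 5 % STIM, 13 rose and 1 fell (Vegfa, at −0.09, named likewise), with a median of 0.67, where 29 % of all genes rose and 28.4 % fell.

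The targets also fell with stimulation under 1 % O2, 13 of 16 with 0 higher, at a median of −0.40, and 0 were higher at an unadjusted p under 0.05 in limma or in edgeR or DESeq2. Of all genes, 10.8 % were called lower and 11.5 % higher in this comparison. Under 5 % O2, 5 rose and 8 fell, with a median of −0.09, where 9.44 % of all genes rose and 12 % fell. Ddit4, the gene of a stress-induced inhibitor of mTORC1, was among those that rose under 5 % O2, from 253 ± 33.9 to 444 ± 14.1 (log2 fold change 0.82, SE 0.14, limma adjusted p = 0.000145), with Ndrg1, Vegfa, Ero1l and Hk2, which are named here after their values were seen. The interaction was below 0 for 10 and above 0 for Ankrd37 alone, at 0.59 (SE 0.19, limma adjusted p = 0.0402). It was called below 0 for 5.43 % of all genes and above 0 for 5.88 %.

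Of the other subunits of the VHL ligase, Rbx1 was called in both comparisons of O2 and Eloc in 1 of them. Of 14 genes of the ligase and of HIF turnover, 3 rose and 3 fell in 1 % CTRL against 5 % CTRL, where 29.4 % and 30.5 % of all genes did. Counts near or below this background are no result about the list. Elob, Eloc and Cul2, which build the ligase with Vhl, were not called, at log2 differences of −0.01, −0.01 and 0.04. Usp20, the gene of a deubiquitinase that acts on HIF-1α, rose from 1585 ± 113 to 2084 ± 105 (log2 fold change 0.40, SE 0.04, limma adjusted p = 3.42e-10). Siah2, the gene of a ubiquitin ligase of prolyl hydroxylases, rose by 0.24 (limma adjusted p = 3.40e-05), while its relatives Siah1a and Siah1b fell by 0.34 and 0.51. Siah1a and Siah1b are close paralogues, and the counting may have split their reads. The remaining calls, named after their values were seen, were Rbx1, the ring subunit of the ligase, at 0.25 (limma adjusted p = 2.06e-08), where the median absolute log2 difference of all genes was 0.23, and the chaperone gene Hsp90aa1 at −0.18. In 1 % STIM against 5 % STIM the called genes were Usp20, Rbx1 (0.23) and Hsp90ab1 (higher) and Siah1a, Siah1b and Eloc (−0.15, lower). Of all genes, 29 % were called higher and 28.4 % lower there. With stimulation under 5 % O2, Siah2 rose by 0.29 and Usp20 fell by 0.15, where 9.44 % of all genes rose and 12 % fell. Under 1 % O2, Siah2 rose by 0.13, Siah1a rose by 0.21 and Usp20 fell by 0.27, where 11.5 % of all genes rose and 10.8 % fell. The interaction was called for Hsp90ab1 alone, at 0.15, where it was above 0 for 5.88 % of all genes and below 0 for 5.43 %.

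Of 6 listed coactivator and inhibitor genes 5 were tested, without Cited4, and 4 fell in both comparisons of O2, where 30.5 % and 28.4 % of all genes did. Higher genes numbered 0, where 29.4 % and 29 % of all genes were higher. They also numbered 0 at an unadjusted p under 0.05 in limma and in edgeR and DESeq2. With 5 genes these counts are given as a description. DESeq2 called 4 lower in the unstimulated and 3 in the stimulated cultures, where Ep300 did not pass, and edgeR called 4 in both. Cdk8, the gene of a kinase of the Mediator complex, was not called, at −0.07 and −0.01. The 4 are Crebbp and Ep300, the histone acetyltransferases that HIF alpha subunits recruit, Ncoa1, and Cited2, which competes with HIF-1α for these acetyltransferases. Crebbp went from 1742 ± 86.7 to 1276 ± 79.8 without stimulation (log2 fold change −0.45, SE 0.04, limma adjusted p = 1.00e-10) and from 1608 ± 84.3 to 1417 ± 88.4 with it (−0.18, adjusted p = 0.000635). Ep300 fell by 0.31 and 0.09 (limma adjusted p = 0.0459 for the second), and Ncoa1 by 0.30 and 0.18. Stimulation raised Cited2 at both O2 levels, by 0.45 (limma adjusted p = 0.00102) and 0.48 (limma adjusted p = 0.000498) on the log2 scale. Under 1 % O2 it also raised Crebbp by 0.15 and Ep300 by 0.11, and under 5 % O2 Ep300 fell by 0.11. Of all genes, 9.44 % rose and 12 % fell with stimulation under 5 % O2, and 11.5 % rose and 10.8 % fell under 1 % O2. The interaction was above 0 for Crebbp (0.27) and Ep300 (0.22), where it was called above 0 for 5.88 % of all genes and below 0 for 5.43 %.

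The genes whose levels were most like those of the 3 members with the widest span of group means are given as a description, by Pearson's r over the 24 libraries, which share the 4 groups. For Egln3 they were Triobp (r = 0.995), Tbl2 (0.994) and Rcor2 (0.994). Within groups, after removal of the group means, r was −0.12, −0.23 and 0.04, so this likeness lay in the group means. For Vhl they were Rcor2 (0.985), Atp8b2 (0.984) and Fignl1 (0.984), with 0.56, 0.64 and 0.55 within groups. For Epas1 they were Hr (0.928), Mrvi1 (0.926) and Dot1l (0.918), with 0.60, 0.59 and 0.55 within groups.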

How the data were processed

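Poly(A) RNA of 24 cultures was sequenced. The authors made stranded single-end libraries, aligned reads to GRCm38 with STAR 2.5.4b after FastQC 0.11.7, and counted genes with RSEM 1.3.0 at default parameters, with no strand setting stated. The deposited signal holds gene counts after division by DESeq2 size factors, without a filter. A second deposited table, with the log2 fold changes, test values and calls of the authors' own comparisons, was not used. Groups follow the labels. In each library, 100 % of values were whole multiples of the smallest step, which gave 26541858 to 28173745 reads, and at a normalized count of 10 a gene rests on about 10 reads. Intervals cover the spread between libraries, and floors the counting error only. No pair of replicates agreed within sampling noise (chi-square per gene of at least 2.54 over 60 pairs). Of the 55487 gene IDs, 99.4 % had a symbol. Coordinates, exon lengths and overlaps come from GENCODE M21.

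The 14541 genes with at least 10 normalized counts in at least 6 libraries entered 1 limma fit (version 3.58.1, R 4.3.3, trend and robust) of log2(normalized count + 1), with Benjamini-Hochberg adjustment over all of them and a threshold of 0.05. Scripts were tested on simulated data. Ratios were tested by exact permutation (924 splits) with adjustment over 16 tests. The members and lists were chosen with earlier results of these data known. Named genes are all members, up to 4 called genes of each list with the largest change, and the 3 tested genes most correlated with each of the 3 members of widest span. Alternatives were no filter, a pseudocount of 10, an adjusted p under 0.01, a fit of only the groups compared, a replicate block, rescaling of libraries to equal totals, each library left out, and edgeR 4.0.16, DESeq2 1.42.0 and limma voom on whole reads. The length slope covariate and the exact permutation test of Hif3a were added after seeing the data.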

Additional observations from a re-analysis of the deposited data

Results flagged for a closer look

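The response of 2 genes to stimulation differed between the O2 levels by limma's interaction contrast, which is what flagged them. For Egln3 the interaction was −0.46 on the log2 scale (SE 0.04, limma adjusted p = 9.68e-10), with stimulation effects of −0.21 under 5 % O2 and −0.68 under 1 % O2. For Egln1 it was −0.27 (SE 0.05, limma adjusted p = 0.000176), with effects of −0.18 and −0.45. Both kept their sign and their call in each alternative that was run. For both, a changed O2 exposure through the replaced medium and stimulation itself cannot be told apart. In 40 sets of 6 libraries (10 genes in 4 groups), 0 held a library far from the others by Dixon's criterion, which chance passes in about 1 of 20 sets.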

How the results depend on the processing

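Each call of a member, except that of Vhl in 5 % STIM against 5 % CTRL, held with its direction under every alternative that was run. The counts of members called, both directions together, stayed within 1.5 times the reported count, but not all those of each direction. Members called higher in 1 % CTRL against 5 % CTRL went from 4 to 7 with equal totals. All genes called higher there went from 4271 to 5670. Members called higher in 5 % STIM against 5 % CTRL went from 0 to 1 (Hif1a) with the length slope. All genes called higher there went from 1372 to 1747. Interactions above 0 went from 0 to 1 (Arnt) without replicate 1 of 1 % CTRL. Those of all genes went from 855 to 1280. Without a filter, Hif3a was called in 5 % STIM against 5 % CTRL. Replicate numbers showed no clear pairing of the samples, as 12 of 36 same-numbered pairs correlated above 0.1 (range −0.507 to 0.388, 9 of 36 best with their own number). These correlations cannot exclude a pairing. The replicate block changed no call of a member in limma. With a replicate block the ratio tests past the threshold went from 8 to 0, with a smallest adjusted p of 0.0556 from exact sign-flip tests and 9 tests under an unadjusted p of 0.05, as the smallest p of such a test is 0.0313. Differences near 0 changed sign in some settings. With libraries rescaled to the same total, Arnt in 1 % CTRL against 5 % CTRL was 0.071, Hif1an in 5 % STIM against 5 % CTRL 0.00555 and the interaction of Epas1 −0.0020, which edgeR gave as −0.00134. The medians of all genes with that scaling were 0.082, 0.023 and −0.0031. With the length slope, Arnt2 in 1 % STIM against 5 % STIM was −0.00209 and the interaction of Egln2 0.0225. Without 1 library each, ranges were −0.026 to 0.0044 for Arnt in 1 % CTRL against 5 % CTRL, −0.034 to 0.102 for Arnt2 in 1 % STIM against 5 % STIM, −0.078 to 0.0059 for Egln2 and −0.011 to 0.125 for Arnt2 in 5 % STIM against 5 % CTRL, −0.057 to 0.0056 for Arnt2 in 1 % STIM against 1 % CTRL, −0.112 to 0.087 for the interaction of Epas1, and −0.014 to 0.125 for the ratio of Arnt to Arnt2 in 1 % STIM against 5 % STIM. The cause was not tested. Depth limits Epas1 and Hif3a, at no more than 42 and 9 reads per library.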

Other observations

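HIF subunits belong to the bHLH-PAS family of transcription factors, and a list of other members of that family held a gene that fell under 1 % O2. Ahr, which encodes the aryl hydrocarbon receptor and shares Arnt as a partner, went from 1123 ± 67.6 to 337 ± 27.0 normalized counts without stimulation (SD, n = 6), which is −1.73 on the log2 scale (SE 0.05, limma adjusted p = 2.98e-24). With stimulation its counts were 1417 ± 102 and 452 ± 19.3, a difference of −1.64 (limma adjusted p = 1.46e-23). Stimulation raised Ahr by 0.33 under 5 % O2 and 0.42 under 1 % O2 on the log2 scale.

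Of 11 listed factors 9 were tested, without Npas1 and Sim1. In 1 % CTRL against 5 % CTRL, 4 rose (Npas3, Npas2, Arntl and Sim2) and 2 fell (Ahr and Clock), where 29.4 % and 30.5 % of all genes did. In 1 % STIM against 5 % STIM 3 rose (Npas3, Npas2 and Sim2) and 1 fell (Ahr), where 29 % and 28.4 % did. Counts near these backgrounds are no result about the list. Npas3 had a mean of 7.71 in 5 % CTRL and 25.0 in 1 % CTRL, and Npas2 one of 20.2 and 29.1, so both rest on few reads. Stimulation raised Ahr and lowered Ahrr, the gene of the repressor of that receptor, under 5 % O2 (−0.62), where 9.44 % of all genes rose and 12 % fell. Under 1 % O2 it raised Ahr and lowered Ahrr (−0.63) and Npas4, a gene known to respond to activity in neurons (−0.83). Of all genes, 11.5 % rose and 10.8 % fell there, and counts near such shares are no result about the list. Ahrr went from a mean of 52.7 in 1 % CTRL to 33.9 in 1 % STIM and Npas4 from 23.1 to 12.7, so these 2 also rest on few reads. Arntl, Sim2, Clock and Ahrr are named after their values were seen. The interaction was called for 0 of the 9 in limma, edgeR and DESeq2, and 0 had an unadjusted p under 0.05 in limma. Of all genes tested, limma called it for 11.3 %.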
